A study of Rattus norvegicus and Mus musculus with 10 samples.

Results

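The genes described here are 10 members of the Toll-like receptor pathway: the cell-surface receptors Tlr2 and Tlr4, the endosomal receptors Tlr7, Tlr9, Tlr12 and Tlr13, the co-receptors Cd14 and Ly96, the adaptor Myd88 and the chaperone Unc93b1. They were chosen by symbol, and their raw counts were summed for each of the authors' cell clusters in each rat tissue or mouse condition. The rat table of 32883 genes held 9 of them under these symbols, with no entry named Ly96, and the mouse table of 31053 genes held all 10. The study profiled leukocytes of the brain and its borders by droplet single-cell RNA sequencing, in which each captured transcript is counted once through a unique molecular identifier (UMI). The 6 rat libraries came from naive Lewis rats, 25 in all: central nervous system (CNS), pia, dura, choroid plexus, blood and cerebrospinal fluid (CSF). The solid tissues were sorted for CD45+ cells that had not taken up CD45 antibody given into the vein, which stains leukocytes in the circulation; blood was purified on a density gradient and CSF was used as drawn. The 2 mouse libraries came from skull dura of C57BL/6 mice, 4 pooled unimmunized mice (naive) and 3 pooled mice at the peak of active experimental autoimmune encephalomyelitis (EAE), a model of autoimmune inflammation of the CNS. The mouse groups follow the sample titles, because the condition field gives EAE for both libraries. The sources used here state no ages.

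Toll-like receptors recognise conserved microbial structures and are carried mainly by macrophages, microglia, dendritic cells and granulocytes. Cd14 hands lipopolysaccharide to the complex of Tlr4 and Ly96 and also assists other receptors, whereas Unc93b1 carries nucleic-acid receptors from the endoplasmic reticulum to endosomes. Most of these receptors signal through Myd88 to NF-kB and interferon regulatory factors, which drive genes for cytokines and chemokines such as Tnf, Il1b and Cxcl2.

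Each group was 1 library, so no difference below has a replicate check, no p-value is given, and every interval covers counting error only, at the 95% level. Annotated cells per rat library numbered 2272 to 4953, with 3486564 to 10083423 UMIs and medians of 981 to 2704 UMIs per cell. Of the mouse libraries, the naive one was shallower, with 2776 cells at a median of 4163.5 UMIs (15007864 in total), and EAE was deeper, with 4579 cells at a median of 11743 UMIs (59256418 in total). No EAE cell had fewer than 5722 UMIs, whereas naive cells went down to 503. Rat libraries shared 8 to 36 cell barcodes pair by pair, at most 0.891% of the smaller library, and the mouse libraries shared 7. Levels are given as CPM, a gene's UMIs per 1000000 UMIs of the group, for groups of at least 50 cells unless stated. The count behind a level sets its interval, and the captured share of a transcript differs between genes, so levels are compared within a gene and not between genes. Rat and mouse libraries used different chemistry and are given side by side only.

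Of the 9 rat genes, 7 had a promoter entry in RefSeq (build GRCr8, which is not the Rnor_6.0 build of the counts). The 250 bases before the start of Tlr2, Tlr4, Tlr7 and Tlr13 are shown because the levels of these 4 receptors followed each other over the 42 rat groups, with Pearson's r of log2(CPM + 10) from 0.73 (Tlr4 with Tlr13) to 0.87 (Tlr2 with Tlr13). Cd14 and Unc93b1 also followed these 4, with r from 0.63 (Tlr4 with Unc93b1) to 0.80 (Tlr7 with Cd14). The shared pattern is thus not particular to the 4 receptors. Capitals mark matches, on either strand, to GAGGAA, the core recognised by the myeloid factor PU.1.
Tlr2 (chr2:171504558-171504807, minus strand): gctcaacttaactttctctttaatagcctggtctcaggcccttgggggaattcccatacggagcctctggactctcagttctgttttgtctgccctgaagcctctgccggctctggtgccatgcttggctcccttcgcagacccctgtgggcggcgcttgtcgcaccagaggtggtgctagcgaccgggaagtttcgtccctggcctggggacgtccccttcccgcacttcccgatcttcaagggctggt
Tlr4 (chr5:85160997-85161246, plus strand): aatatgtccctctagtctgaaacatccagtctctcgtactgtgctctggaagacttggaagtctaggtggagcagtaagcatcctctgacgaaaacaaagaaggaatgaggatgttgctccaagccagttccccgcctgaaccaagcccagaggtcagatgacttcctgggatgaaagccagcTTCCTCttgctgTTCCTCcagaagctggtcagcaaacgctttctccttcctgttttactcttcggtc
Tlr7 (chrX:30644176-30644425, plus strand): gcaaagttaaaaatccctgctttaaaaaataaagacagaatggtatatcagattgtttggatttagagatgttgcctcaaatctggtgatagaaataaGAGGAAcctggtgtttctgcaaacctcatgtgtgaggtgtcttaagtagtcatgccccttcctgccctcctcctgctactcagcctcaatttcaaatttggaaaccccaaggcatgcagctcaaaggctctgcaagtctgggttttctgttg
Tlr13 (chrX:75285582-75285831, plus strand): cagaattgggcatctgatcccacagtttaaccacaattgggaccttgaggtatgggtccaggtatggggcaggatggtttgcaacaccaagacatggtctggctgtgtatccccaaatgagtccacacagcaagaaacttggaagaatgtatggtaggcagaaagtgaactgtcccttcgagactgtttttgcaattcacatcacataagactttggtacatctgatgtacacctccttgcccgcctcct
Tlr4 held 2 matches and Tlr7 held 1, while Tlr2 and Tlr13 held none. Of the promoters not shown, Cd14 held 2 matches, Tlr9 held 1 and Myd88 none. The core was present in 23.3% of all 33469 promoters of the same length, so its presence does not set these genes apart. TGANTCA, the AP-1 site, which 6.34% of promoters held, had no match in these 4 sequences, so no matches overlapped.

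In the rat, most of the pathway was read from the 4 myeloid clusters that the authors named micro, myeloid1, myeloid 2 and myeloid3, and a few members marked other cells. Tlr2, Tlr4, Tlr7, Tlr13, Cd14, Myd88 and Unc93b1 had UMIs in every tissue of these 4 clusters that held at least 50 cells. Tlr12, an endosomal receptor for parasite profilin, stood at 61.3 CPM (14 UMIs) in choroid plexus and 60.1 CPM (29 UMIs) in dura in the dendritic cell cluster mDC1, and at no more than 5 UMIs in any other group of at least 50 cells. Tlr9, the receptor for CpG DNA, had at most 6 UMIs in any rat group. Tlr7, the receptor for single-stranded RNA, reached 268 CPM (30 UMIs, 180.8 to 383) in the 48 dural cells of the plasmacytoid dendritic cell cluster pDC, above its range of 77.2 to 165.6 CPM over tissues in myeloid 2.

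**Figure D1:**
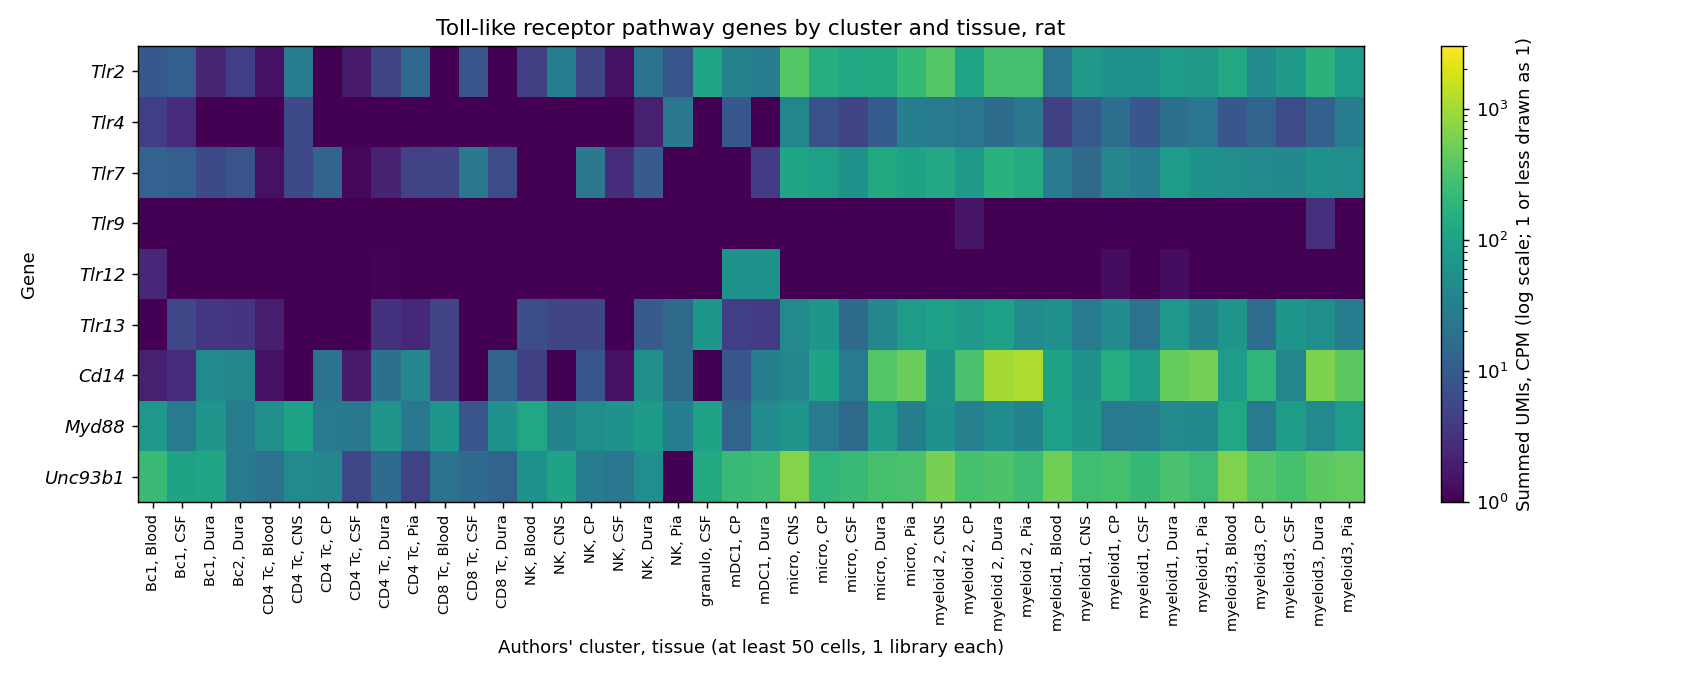
Level of the 9 rat genes (vertical axis) in each of the authors' clusters by tissue with at least 50 cells (horizontal axis), as CPM on a log colour scale, 1 library per tissue. Cd14 is brightest in myeloid 2 of pia (1137 CPM) and dura (1020.1 CPM), Unc93b1 in micro of the CNS (675 CPM), and Tlr12 in the mDC1 columns.

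Cd14, the glycosylphosphatidylinositol-anchored co-receptor, gave the largest tissue ratio of the members tested in the rat. It was high in pia and dura and low in the CNS within each cluster with at least 50 cells of each tissue. In myeloid 2 it stood at 1137 CPM in pia, 1020.1 CPM in dura, 305.5 CPM in choroid plexus and 69.6 CPM in the CNS (55 UMIs). The CNS level was 16.3-fold below that of the pia (12.5 to 21.8) and that of the choroid plexus 3.72-fold below it (3.20 to 4.35), whereas dura and pia were close. In micro, Cd14 stood at 40.5 CPM in the CNS and 26.5 CPM in CSF (5 UMIs), at 105.2 CPM in choroid plexus, 347 CPM in dura and 476 CPM in pia. Pial micro cells were 11.8-fold (9.58 to 14.4) and dural ones 8.59-fold (6.51 to 11.2) above those of the CNS. In myeloid1 the level was 562 CPM in pia, 457 CPM in dura, 144 CPM in choroid plexus, 105 CPM in blood, 85.3 CPM in CSF and 55.4 CPM in the CNS, the last 10.2-fold below pia (6.78 to 15.9). In myeloid3 it was 625 CPM in dura, 401 CPM in pia, 189 CPM in choroid plexus, 82.7 CPM in blood and 39.1 CPM in CSF. Dural myeloid3 cells were 7.56-fold above blood (6.18 to 9.25) and pial ones 4.85-fold (3.36 to 6.86). The neutrophil markers of myeloid3 summed to 5514 CPM in dura (5 of 7 genes above 0, Lcn2 and Ltf at 0), 843 CPM in pia, 852 CPM in CSF, 423 CPM in blood and 132 CPM in choroid plexus, and their part in the level of Cd14 was not tested. Every dural or pial group of these clusters thus had Cd14 at 347 CPM or more. Each CNS, blood or CSF group of at least 50 cells had 105.0 CPM or less. Smaller groups, such as myeloid3 of the CNS (37 cells) and micro of blood (20 cells), are not covered.

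The share of cells with a Cd14 UMI was also higher in dura and pia than in choroid plexus and CNS. In myeloid 2 it was 73.7% in dura (761 of 1033, 70.9 to 76.3 exact binomial), 54.98% in pia, 25.9% in choroid plexus and 12.95% in the CNS. With cells thinned to 500 UMIs and shallower cells left out (1458 of 1515 pial and 399 of 409 choroid plexus cells stayed, and all dural and CNS cells), the shares were 35.7%, 38.1%, 12.3% and 3.18%. The dural share was thus above the pial one before thinning and close to it after. Cells of the T cell cluster CD4 Tc, which should lack Cd14, gave the background: 2.71% of dural cells (median 1376 UMIs), 2.63% of pial cells (median 745 UMIs) and 0 of 53 CNS cells had a UMI. Their level was 41.3 CPM in pia, 19.4 CPM in dura, 1.45 CPM in blood and 1.79 CPM in CSF. Dural and pial libraries thus carried more Cd14 outside myeloid cells than blood or CSF, at a small part of the level of their myeloid clusters.

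Identity markers also differed across tissues inside these clusters. The 7 microglia markers (Tmem119, P2ry12 and others) were all detected in myeloid 2 of every tissue, but summed to 11448 CPM in the CNS and to 446 to 1334 CPM in pia, dura and choroid plexus. The 5 border macrophage markers in the table (Mrc1, Cd163 and others) summed to 268 CPM in CNS myeloid 2, with Cd163 at 0, against 6217 CPM in pia and 7808 CPM in dura. In micro the microglia sum was 14727 CPM in the CNS, 1277 CPM in dura and 2530 CPM in pia, while the border macrophage sum was 176 CPM in the CNS and 2354 CPM and 2740 CPM in those tissues. Cells that share a cluster name therefore differed in identity markers between CNS and meninges. The part of that difference in the level of Cd14 was not tested. In CSF micro cells, where Cd14 was low too, the microglia sum was 4739 CPM. In myeloid3 the border macrophage sum had another order than Cd14. It was 287 CPM in dura, 1044 CPM in pia and 693.5 CPM in choroid plexus, against 33.6 CPM in blood. In myeloid1 it was 2188 CPM in dura, 2082.5 CPM in pia and 1293 CPM in choroid plexus. The CNS had 538 CPM there, CSF 274 CPM and blood 237 CPM. The dissociation stress list (Fos, Jun and others, 6 of 7 genes above 0) was highest where Cd14 was lowest in myeloid 2, at 20952 CPM in the CNS against 13427 CPM in pia, 10464 CPM in dura and 8002 CPM in choroid plexus. In myeloid3 it was 1112 CPM in blood, 2246 CPM in dura and 5800 CPM in pia, which is not the order of Cd14 there. In micro it was highest in pia (14146 CPM) and lowest in CSF (1698 CPM), as Cd14 was, with 10538 CPM in the CNS, 5690 CPM in choroid plexus and 5219 CPM in dura. In myeloid1 it was 11644 CPM in the CNS, where Cd14 was lowest, 9072 CPM in pia, 6716 CPM in choroid plexus, 5567 CPM in dura, 979 CPM in CSF and 959 CPM in blood. Its part was not tested either. Genes of epithelium and leptomeninges (Ttr, Ptgds, Igfbp2 and Dcn) summed to 11393 to 26747 CPM in the CSF cells of micro, myeloid1 and myeloid3 and to 744 to 5789 CPM in pial and choroid plexus cells of the 4 clusters, against at most 104 CPM in the other tissues, and their part in the CSF values was not tested.

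**Figure D2:**
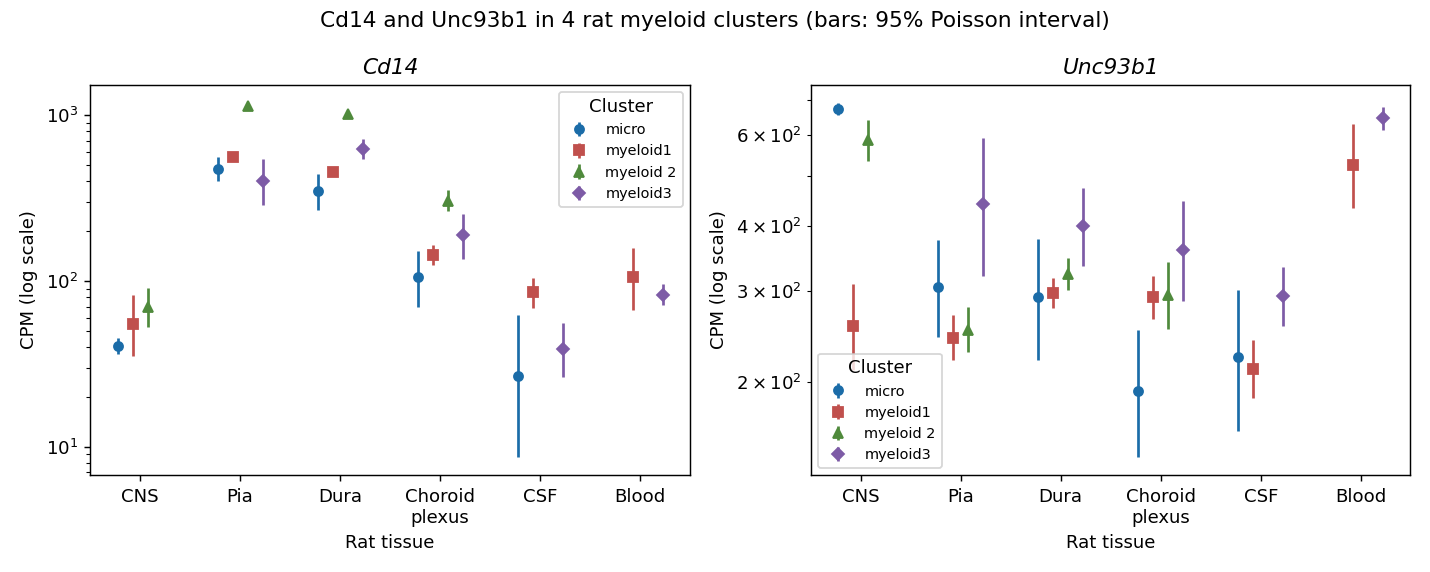
CPM (log scale, vertical axis) of Cd14 (left) and Unc93b1 (right) in 4 rat myeloid clusters by tissue (horizontal axis), with 95% Poisson intervals from 1 library each. Cd14 sits at 347 CPM or more in every pial and dural group and at 105.0 CPM or less in the CNS, CSF and blood; Unc93b1 is highest in CNS micro (675 CPM) and blood myeloid3 (646 CPM).

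Tlr2, which senses bacterial lipopeptides as a dimer with Tlr1 or Tlr6, followed another order. In micro it was 368 CPM in the CNS, 214 CPM in pia, 147 CPM in choroid plexus, 128 CPM in dura and 117 CPM in CSF. The CNS level was 2.88-fold above dura (1.95 to 4.46), 2.51-fold above choroid plexus (1.83 to 3.54) and 3.15-fold above CSF (2.08 to 5.04). In myeloid 2 Tlr2 was 365 CPM in the CNS, 282 CPM in dura and 271 CPM in pia, with choroid plexus apart at 106.8 CPM, 2.54-fold below pia (1.95 to 3.35). In myeloid3 it was 169 CPM in dura, 126 CPM in blood, 80.3 CPM in pia, 72.9 CPM in CSF and 48.3 CPM in choroid plexus. In myeloid1 it stayed between 22.8 CPM (blood, 5 UMIs) and 83.4 CPM (dura). Choroid plexus was thus low for Tlr2 in micro, myeloid 2 and myeloid3, whereas the CNS was high in micro and myeloid 2. Tlr4, the lipopolysaccharide receptor, was read from few UMIs: 39.0 CPM in CNS micro (318 UMIs), 31.5 CPM in pial micro (9 UMIs) and 10.2 CPM in dural micro (2 UMIs, 3.82-fold lower than CNS, 1.05 to 31.7). In myeloid 2 it ranged from 17.1 CPM in dura to 27.9 CPM in the CNS, with no tissue past 2-fold from pia.

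Among the endosomal genes, Unc93b1 was highest in CNS and blood cells. In micro it was 675 CPM in the CNS and 305 CPM in pia, 291 CPM in dura, 223 CPM in CSF and 192 CPM in choroid plexus, 2.21-fold (1.79 to 2.77) to 3.52-fold (2.67 to 4.73) below the CNS. In myeloid 2 the CNS again led with 586 CPM, 2.33-fold above the 252 CPM of pia (2.03 to 2.67), with 323 CPM in dura and 294 CPM in choroid plexus. In myeloid3 blood held 646 CPM and CSF 293 CPM, 2.21-fold lower (1.92 to 2.55). In B cells of cluster Bc1 it was 233 CPM in blood, 115.5 CPM in dura and 101.6 CPM in CSF, against 4.86 to 46.7 CPM over the tissues in CD4 Tc. With the trimmed mean of M values (TMM) as scaling, the difference of Unc93b1 between CNS and pia in myeloid 2 fell to 0.84 on the log2 scale, under 2-fold, from 1.22.

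Tlr13, the receptor for bacterial ribosomal RNA, was higher in dura than in pia in both clusters with many cells of each. In myeloid 2 it was 98.5 CPM in dura, 97.5 CPM in the CNS, 75.6 CPM in choroid plexus and 48.2 CPM in pia, and dura was 2.04-fold above pia (1.57 to 2.68). In myeloid1 it was 71.9 CPM in dura, 54.8 CPM in blood, 47.6 CPM in choroid plexus, 35.9 CPM in pia, 27.7 CPM in the CNS and 20.2 CPM in CSF, and dura was 2.00-fold above pia (1.495 to 2.72). In myeloid3 it was 64.2 CPM in blood and 67.7 CPM in CSF and 17.6 CPM in choroid plexus, on 4 UMIs. Both dural ratios lay at the 2-fold line, and TMM scaling left 1.02 in myeloid 2 and 0.89 in myeloid1 on the log2 scale. Tlr7 ranged in micro from 58.4 CPM in CSF to 128 CPM in dura with no tissue past 2-fold from the CNS, and in myeloid 2 from 77.2 CPM in choroid plexus to 165.6 CPM in dura. In myeloid1 it stood at 83.1 CPM in dura and 60.2 CPM in pia and at 16.2 CPM in the CNS (7 UMIs), 3.73-fold below pia (1.74 to 9.52).

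Myd88, the adaptor shared by nearly all of these receptors, was not a myeloid marker in the rat. It stood at 116 CPM in blood myeloid3 and 64.0 CPM in CNS micro, and also at 105.0 CPM in CNS CD4 Tc (18 UMIs) and 70.8 CPM in blood Bc1. Its correlation with the other members over the 42 groups ran from -0.06 (Tlr7) to 0.19 (Unc93b1), while all other pairs of members read in the rat lay between 0.62 (Cd14 with Unc93b1) and 0.87. In myeloid3 it was lower than in blood in choroid plexus, at 26.3 CPM (4.42-fold, 2.00 to 12.2), and in dura, at 44.4 CPM (2.62-fold, 1.56 to 4.74).

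These shifts were set against all genes by 1 rule: at least 20 UMIs over both sides, a difference of at least 2-fold and an interval of the ratio that does not include 1. For micro against the CNS, the rule was met by 5 of 7 tested members in choroid plexus (20.1% of all genes tested), 4 of 7 in CSF (16.5%), 4 of 7 in dura (20.4%) and 3 of 7 in pia (18.3%). Of those 16, only the Cd14 ratios of choroid plexus, dura and pia were higher than in the CNS. With each cell weighted equally, the Cd14 ratio of choroid plexus was 0.93 against 1.38 on the log2 scale, and the Unc93b1 ratio of dura was -0.83 against -1.21, both under 2-fold. For myeloid 2 against pia it was met by 3 of 7 members in the CNS (36.3% of genes), 2 of 7 in choroid plexus (11.2%) and 1 of 7 in dura (10.9%). For myeloid1 against pia it was met by 4 of 7 in blood (27.4%), 2 of 7 in the CNS (14.7%), 1 of 7 in choroid plexus (10.2%), 2 of 7 in CSF (24.5%) and 1 of 7 in dura (7.68%). Of those in blood, Myd88 (1.14 on the log2 scale) and Unc93b1 (1.11) were higher. With TMM scaling they were at 0.57 and 0.54, under 2-fold. In blood myeloid1 the B cell markers summed to 1247 CPM and the T cell markers to 329 CPM. In pia these sums were 0.609 CPM and 27.4 CPM, and their part in the blood values was not tested. For myeloid3 against blood the rule was met by 4 of 7 in choroid plexus (23.7%), 2 of 7 in CSF (19.8%), 2 of 7 in dura (19.3%) and 1 of 7 in pia (15.7%). Among 7 genes, 1 or 2 past the rule is near the background in every one of these comparisons, and whether the counts of 3 to 5 exceed it was not tested. Over all 112 rat ratios tested, 12 were higher and 29 lower by the rule, and with TMM scaling 7 were higher and 33 lower. Per comparison, 3.59% to 22.6% of all genes were higher and 3.77% to 16.8% lower by the rule. Ratios of a cluster share their reference tissue, so they are not independent, and their direction depends on that reference.

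Of 16 listed target genes of the pathway, 15 were in the rat table. In micro, 7 of 10 tested were higher in choroid plexus than in the CNS (median log2 ratio 1.59 against -0.14 for all genes), Il1b, Ccl4, Cxcl2 and Cxcl10 among them, and 5 of 10 in pia; 7.70% and 8.88% of all genes tested were higher there. In CSF micro cells 6 of 10 were lower than in the CNS (median -1.92 against 0.11), beside 8.90% of all genes. Dural micro cells went both ways, with 3 higher and 2 lower of 10, beside 12.95% and 7.5% of all genes. Their median was -0.19 against 0.37. In myeloid 2, of 11 tested, CNS cells had 3 higher (Il6, Ccl3 and Cd86) and 4 lower (Il1b, Il10, Cxcl2 and Cxcl10) than pial cells. Of all genes, 22.6% were higher and 13.8% lower there, and the median of the targets was 0.20 against 0.31. Choroid plexus cells had 1 higher and 3 lower of 11 (4.77% and 6.42% of all genes). Dural cells had 2 of 11 lower (5.86%) and none higher. In myeloid1, 8 of 9 targets were lower in CSF than in pia (median -3.89, and 14.1% of all genes lower) and 8 of 9 in blood (8.58% of all genes). Lower too were 6 of 9 in the CNS (6.67% of all genes) and 6 of 10 in choroid plexus (6.57%). In dura 3 of 11 were lower (3.77%) and 1 higher (3.91%). The dissociation stress sum was 979 CPM in CSF and 959 CPM in blood against 9072 CPM in pia in that cluster, and its part in the target genes was not tested. The B and T cell marker sums of blood myeloid1, given above, were not tested for their part either. In myeloid3 the targets were higher than in blood for 7 of 9 in pia (7.55% of all genes), 7 of 8 in choroid plexus (6.92%) and 5 of 8 in dura (7.92%). In CSF cells of myeloid3 2 of 6 were lower (12.3% of all genes) and none higher. The stress and neutrophil sums of dura and pia, given above, were also higher than in blood, and their part was not tested.

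In the mouse dura, Tlr13 and Tlr4 were higher in EAE than in naive cells of the cluster myeloid1, and Cd14 was lower in EAE in the dendritic cell clusters mDC1 and mDC2. Gene positions are those of GENCODE vM21 on GRCm38, the mm10 build that the counts use. Tlr13 (chrX:106143204-106160493, plus strand) stood at 26.0 CPM in EAE (315 UMIs) and 6.75 CPM in naive cells (12 UMIs) of cluster myeloid1, 3.85-fold higher (2.18 to 7.54). The share of those cells with a Tlr13 UMI was 24.7% in EAE and 5.29% in naive mice, and 2.69% and 0.742% after thinning to 1000 UMIs. In CD4Tc no cell of either library had a Tlr13 UMI (0 of 152 and 0 of 353). Tlr4 (chr4:66827584-66930284, plus strand) stood at 16.4 CPM and 7.31 CPM in myeloid1, 2.25-fold higher (1.29 to 4.30), and at 0.90 on the log2 scale, under 2-fold, with TMM scaling. Markers of other cells moved with both in myeloid1: the 8 neutrophil markers summed to 6829 CPM in EAE against 143 CPM in naive cells, with Ly6g at 0 in the naive cells, and the 5 monocyte markers, all detected in both, to 1617 CPM against 446 CPM. Tlr13 was itself read in EAE granulo2, at 44.7 CPM, and Tlr4 in EAE myeloid2, at 29.8 CPM. The part of such cells in the myeloid1 ratios was not tested. Tlr2 (chr3:83836272-83841767, minus strand) was 338 CPM in EAE and 277 CPM in naive myeloid1 cells, within 2-fold.

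**Figure D3:**
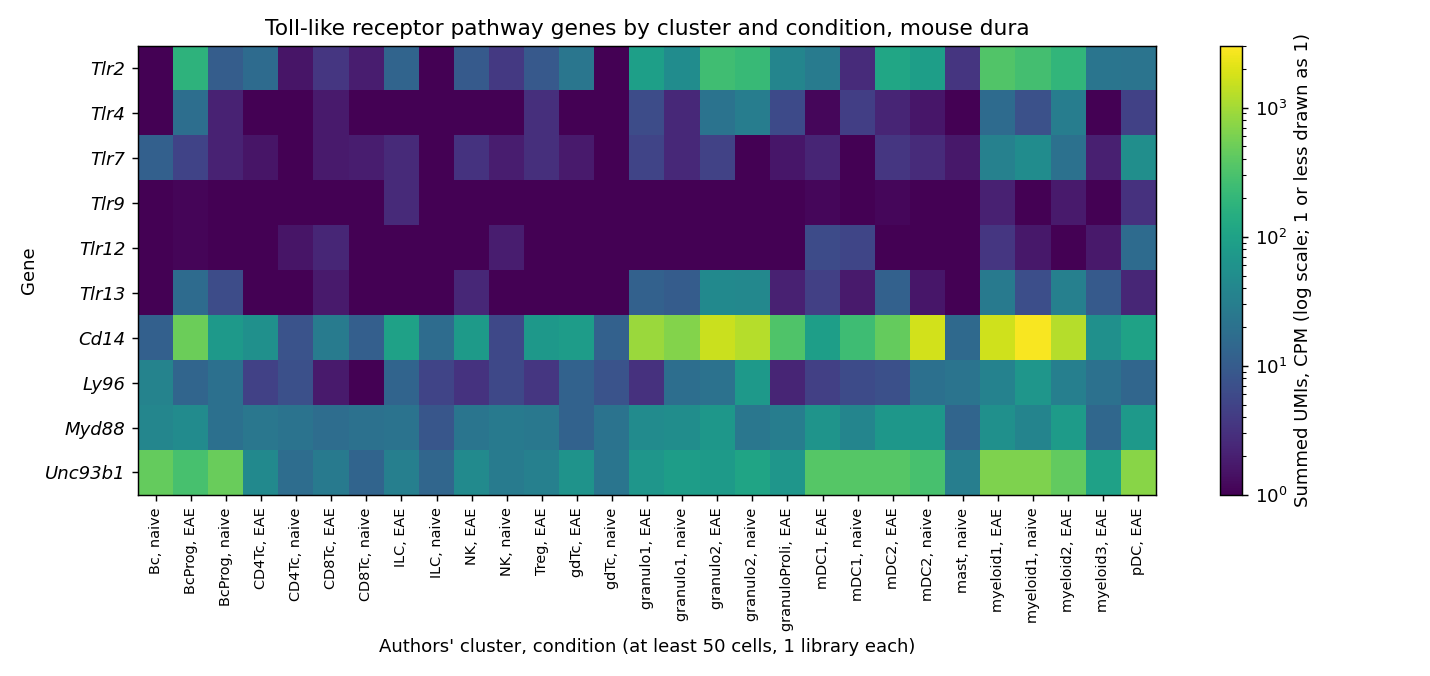
Level of the 10 mouse genes (vertical axis) in each cluster and condition of the dura with at least 50 cells (horizontal axis), as CPM on a log colour scale, 1 pooled library per condition. Cd14 is brightest in naive myeloid1 (2744 CPM) and naive mDC2 (1721.5 CPM) cells, and Tlr9 is dark in most columns.

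Cd14 (mm10 chromosome 18, start 36725067, end 36726798, minus strand) was lower in EAE in both conventional dendritic cell clusters. In mDC2 it was 451 CPM in EAE against 1721.5 CPM in naive cells, 3.81-fold lower (3.64 to 4.00), and the share of cells with a UMI was 69.8% against 85.8%, or 25.03% against 55.2% after thinning to 1000 UMIs. In mDC1 it was 88.0 CPM against 248 CPM, 2.81-fold lower (2.36 to 3.37). In myeloid1 it was 1685 CPM against 2744 CPM, lower by 0.70 on the log2 scale and within 2-fold. The neutrophil clusters went the other way within 2-fold: Cd14 was 901 CPM in EAE and 675 CPM in naive granulo1 and 1590.4 CPM and 1228 CPM in granulo2, with TMM scaling taking the granulo1 ratio of Cd14 from 0.42 to 1.14 on the log2 scale, past 2-fold. In myeloid2, with 481 EAE and 49 naive cells, it was 1237 CPM and 1211 CPM. Ly96 (chr1:16688051-16709611, plus strand), the Tlr4 partner also called MD-2, was lower in EAE in mDC2 at 7.17 CPM against 19.2 CPM (2.68-fold, 1.71 to 4.15), in granulo1 at 3.13 CPM against 17.9 CPM (5.70-fold, 2.13 to 13.2, 7 naive UMIs) and in granulo2 at 20.2 CPM against 77.1 CPM (3.83-fold, 1.90 to 7.20). With naive cells held to the lowest UMI count of the EAE cells, 23 naive granulo1 cells with 2 Ly96 UMIs remained, and the log2 ratio there was -1.43 against -2.51, no longer past the rule. In myeloid1 Ly96 was 35.4 CPM against 68.1 CPM, a log2 ratio of -0.95 and within 2-fold, or -1.22 with TMM scaling.

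The dissociation stress list was lower in EAE in every cluster compared, at 2783 CPM against 5595 CPM in mDC2 and 3619 CPM against 6953 CPM in myeloid1, with all 7 genes detected on each side. Its part in the Cd14 and Ly96 differences was not tested. The dendritic marker sum of mDC2 was 800.5 CPM in EAE against 2401 CPM in naive cells, all 7 markers detected in both, and its part was not tested either.

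The endosomal members gave few differences. Unc93b1 (chr19:3935186-3949340, plus strand) was 636 CPM in EAE and 646 CPM in naive myeloid1 cells, 359 CPM and 288 CPM in mDC2, 365 CPM on both sides in mDC1, and 734 CPM and 823 CPM in pDC, which had only 48 naive cells. Tlr7 (chrX:167304929-167330558, minus strand) was 33.5 CPM and 48.4 CPM in myeloid1 and 52.4 CPM and 50.2 CPM in pDC. In mDC2, Tlr13 was 12.03 CPM in EAE and 1.60 CPM in naive cells, 7.52-fold higher (2.50 to 37.1) on 3 naive UMIs. With each cell weighted equally, that Tlr13 difference was 0.73 on the log2 scale, under 2-fold. Tlr12 (chr4:128615443-128618619, minus strand) was read in pDC (16.4 CPM in EAE and 8.37 CPM, 3 UMIs, in naive cells) and in mDC1 (6.15 CPM and 5.31 CPM), with 43 UMIs in EAE myeloid1, so that in both species it was found in a cluster named mDC1. Tlr9 (chr9:106222598-106226883, plus strand) had at most 25 UMIs in any group, in EAE myeloid1, against 1 in naive myeloid1 cells, a ratio whose interval includes 1. Myd88 (chr9:119335934-119341411, minus strand) was 55.2 CPM and 36.6 CPM in myeloid1, 69.5 CPM and 68.8 CPM in mDC2, and 68.8 CPM and 23.7 CPM in granulo2, where 4 naive UMIs gave 2.90-fold (1.11 to 10.8).

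**Figure D4:**
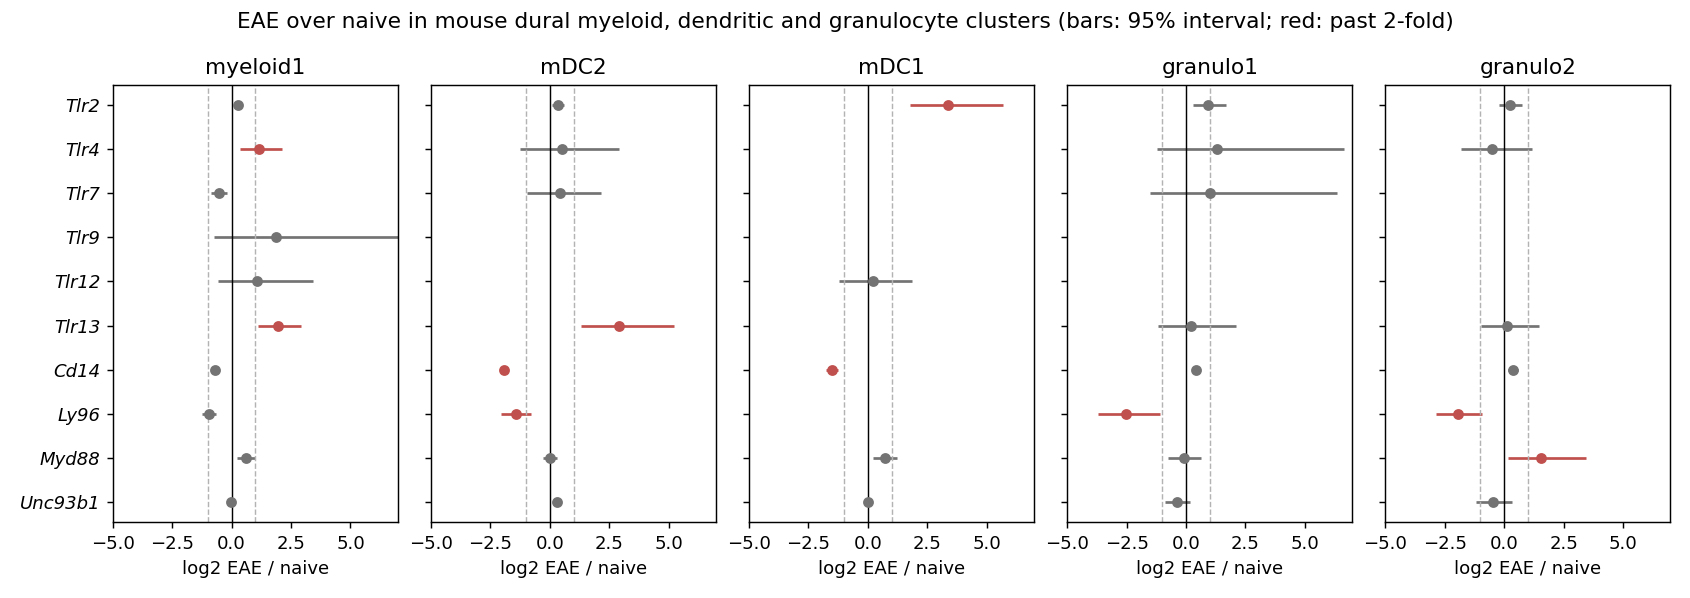
Log2 ratio of EAE over naive dura (horizontal axis) for each of the 10 genes (vertical axis) in 5 mouse clusters, with 95% intervals that cover counting error only; red points are past 2-fold with an interval without 0, dashed lines mark 2-fold, and genes under 20 UMIs are left out. Cd14 lies at -1.93 in mDC2 and -1.49 in mDC1, and Tlr13 at 1.95 in myeloid1.

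By the rule used for the rat, 2 of 10 members were past 2-fold in myeloid1 (19.8% of all genes tested), 3 of 8 in mDC2 (30.0%), 2 of 5 in mDC1 (17.9%), 1 of 8 in granulo1 (19.3%) and 2 of 7 in granulo2 (17.8%), and none of these counts stands clear of the background with so few genes. In mDC1 the member besides Cd14 was Tlr2, at 27.7 CPM in EAE and 2.65 CPM in naive cells, where 3 UMIs gave 10.4-fold (3.43 to 51.7).

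In clusters of other lineages every member past 2-fold was higher in EAE. There were 3 of 4 tested in CD4Tc (24.4% of genes in either direction), 1 of 3 in CD8Tc (12.1%), 2 of 3 in ILC (28.5%), 1 of 3 in NK (11.1%), 2 of 4 in gdTc (12.8%) and 4 of 7 in BcProg (31.5%). Of all genes, 16.2% were higher in CD4Tc, 4.91% in CD8Tc, 23.4% in ILC, 5.01% in NK, 6.77% in gdTc and 12.8% in BcProg. A gene was tested if both sides together had at least 20 UMIs. A member with few naive UMIs, such as Cd14 in NK, passed through its EAE counts alone. Members scarce on both sides were not tested, so no conclusion is drawn from the shared direction. In ILC the member besides Cd14 was Unc93b1, whose log2 ratio of 1.14 fell to 0.43, under 2-fold, with TMM scaling. Cd14 was 55.8 CPM in EAE and 7.86 CPM in naive CD4Tc, 79.6 CPM and 5.64 CPM (3 UMIs) in NK, 96.4 CPM and 17.0 CPM in ILC, 84.3 CPM and 12.1 CPM in gdTc and 27.6 CPM and 11.4 CPM in CD8Tc. The summed level of 8 neutrophil markers (S100a8, S100a9 and others) moved with it, from 152 to 186 CPM in these 5 naive groups to 3214 to 6954 CPM in EAE. All 8 markers were detected in the EAE groups, whereas Ly6g was at 0 in all 5 naive ones. Its part in the Cd14 level was not tested. In gdTc the Cd14 difference was 0.06 on the log2 scale once the 5% of cells with most UMIs were left out and 1.59 with each cell weighted equally, against 2.80. With naive cells held to the EAE minimum, the Cd14 difference went from 2.50 to 1.43 in ILC (39 naive cells) and from 1.28 to 3.11 in CD8Tc (40 naive cells, 1 UMI), and TMM scaling gave 1.79 in ILC. In BcProg, a cluster named for B cell progenitors, Tlr2 was 176 CPM in EAE and 10.8 CPM in naive cells and Cd14 496 CPM and 73.1 CPM. The 4 B cell markers summed to 202 CPM in EAE against 6135 CPM in naive BcProg and the 5 monocyte markers to 6065 CPM against 441 CPM, so the EAE cells go against that name, and the difference there compares cells with unlike markers.

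Most of the 16 listed target genes of the pathway were lower in EAE in myeloid1, with 14 of 15 tested (median log2 ratio -1.77, against 0.40 for all genes, of which 3.75% were lower), and in mDC2, with 13 of 15 (median -2.29 against 0.55, and 4.86% of genes lower). Among other clusters of at least 50 cells, granulo1 and granulo2 had lower targets and none higher. They numbered 7 of 11 (16.8% of all genes lower) and 6 of 10 (12.6%). Both directions occurred in mDC1 (1 higher and 6 lower of 12), gdTc (1 and 5 of 8) and BcProg (2 and 4 of 9). The same held for CD4Tc (1 and 3 of 8), CD8Tc (1 and 2 of 9) and NK (2 and 2 of 8). ILC had 4 higher and 2 lower of 10, beside 23.4% and 5.09% of all genes. Smaller groups with both directions were Bc (25 EAE cells, 2 and 2 of 7) and pDC (48 naive cells, 2 and 1 of 8). Of all genes, 6.83% were higher and 14.2% lower in Bc, and 6.27% and 5.33% in pDC. Smaller groups with lower ones alone were myeloid2 (49 naive cells, 7 of 11), myeloid3 (23, 6 of 13) and Treg (30, 3 of 9). There 5.57%, 2.92% and 5.57% of all genes were lower. Il1b was higher in ILC, NK, gdTc, BcProg and pDC and lower in myeloid1, mDC2, mDC1, granulo1, granulo2 and myeloid2. The neutrophil sums of ILC, NK and gdTc, given above, were higher in EAE too, and their part in Il1b was not tested. In myeloid1 Tnf was 116 CPM in EAE and 356 CPM in naive cells, Cxcl2 was 1647 CPM and 8195 CPM, Il6 was 0.578 CPM (7 UMIs) and 15.2 CPM, and Ifnb1, the gene of interferon beta, was 0.413 CPM (5 UMIs) and 61.9 CPM. Of 12 listed negative regulators tested in myeloid1, 4 were lower (3.75% of all genes) and none higher. Among the 4 were Tnfaip3 (75.3 CPM against 229 CPM) and Zfp36 (338 CPM against 784 CPM). Dusp1, another of the 4, is also on the dissociation stress list. This was not particular to myeloid1. Every other cluster of at least 50 cells had from 3 (mDC1) to 7 (BcProg) lower of 11 or 12, Tnfaip3 among them. Of all genes, 2.95% (mDC1) to 18.6% (BcProg) were lower in those clusters. CD4Tc, ILC and mDC2 each had 2 higher as well, beside 16.2%, 23.4% and 25.1% of all genes. Irf7, the interferon regulatory factor downstream of Tlr7 and Tlr9, was higher in EAE, at 421 CPM against 151 CPM in myeloid1 (2.79-fold) and 322 CPM against 67.2 CPM in mDC2 (4.79-fold). It was the only 1 of 13 listed transcription factors past the rule in myeloid1, where 16.0% of all genes were higher. In mDC2 it was 1 of 3 higher among 13, beside 25.1% of all genes. Neither count stands above these shares. Of the 6 other receptors that could be tested in myeloid1, 3 were higher in EAE (16.0% of all genes were higher), all at low counts: Tlr1 (17.9 CPM against 6.75 CPM), Tlr6 (6.77 CPM against 2.25 CPM) and Tlr8 (12.9 CPM against 6.19 CPM). The stress sums given above, lower in EAE in the same clusters, were not tested for their part in the target genes or the negative regulators.

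Over the 42 rat groups the genes most like Tlr2 in pattern were Ctsb (r = 0.93), Asah1 (0.93) and Tf (0.92), the genes most like Cd14 were Folr2 (0.92), Fcna (0.90) and Cd300le (0.90), and those most like Unc93b1 were Ctsz (0.93), Psap (0.92) and Spi1 (0.91). Those most like Tlr13 were C5ar1 (0.92), Tf (0.90) and LOC680910 (0.90), those most like Tlr7 were Ccl9 (0.90), Rin2 (0.88) and Ctsa (0.87), and Rin2 also led for Tlr4 (0.86). For Myd88 no gene passed 0.68. Over the 29 mouse groups Cd14 and Tlr2 were each among the 3 genes most like the other (0.93), Tlr4 and Tlr13 shared Rhov (0.93 and 0.92), and the genes most like Unc93b1 were Stx7 (0.93), Ly86 (0.92) and Lmo2 (0.92). Groups share libraries and differ in depth, so these values describe the groups and carry no test.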

How the data were processed

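The deposited files give raw UMI counts for every barcode, in 1 matrix for each species, and the authors' annotation names the cluster and library of 21187 of 26301 rat and 7355 of 8126 mouse barcodes. The labels state means of 4384 rat and 3900 mouse cells per library, and the files hold 4383.5 and 4063 barcodes per library. Per the submitters' processing notes the authors ran Cell Ranger 3.1.0 with the builds mm10 and Rnor_6.0, while the rat matrix was written by version 3.0.2, per the file headers. Filters on cells and the treatment of doublets are not given in the sources used here, and no doublet caller was run.

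The genes and role lists were chosen with earlier results of these data known. Counts were summed per cluster and library and divided by the total (CPM), with exact Poisson intervals. Ratios carry exact conditional binomial 95% intervals, and a side at 0 counted as 3 UMIs over the group. Shares carry exact Clopper-Pearson intervals. In each rat cluster the tissue with most cells was the reference, and groups needed 50 cells. Genes named as alike were the 3 with the highest Pearson's r of log2(CPM + 10) among genes with at least 200 UMIs. Alternatives were TMM scaling (edgeR 4.0.16 in R 4.3.3), cells weighted equally, leaving out the 5% of cells with most UMIs, naive cells at the EAE minimum, a 1.5-fold rule, a minimum of 1 UMI, thinned shares and a pseudocount of 1, and a minimum of 20 cells, which was chosen after seeing the data. Barcodes without a cluster and the 2 B cell receptor libraries were left out. Python 3.11.15, numpy 2.4.6, pandas 2.3.3, scipy 1.17.1 and matplotlib 3.10.9 were used. The ratio step was tested on simulated data.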

Additional observations from a re-analysis of the deposited data

Results flagged for a closer look

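Cd14 moved in opposite directions between mouse clusters under the same contrast of EAE over naive dura, with a log2 ratio of 3.82 in NK (79.6 CPM against 5.64 CPM, the latter on 3 UMIs) and -1.93 in mDC2. The difference between the clusters was not tested, since each condition was 1 library. The neutrophil marker sum was 5118 CPM in EAE NK cells and 3183 CPM in EAE mDC2 cells, against 152 CPM and 112 CPM in naive ones.

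Members were also read in barcodes that the authors put in no cluster, which no comparison used. Cd14 was at 197 CPM over the 771 such mouse barcodes of both libraries, with 151.6 CPM in the 350 naive and 204.7 CPM in the 421 EAE barcodes. Unc93b1 was at 34.8 CPM over the 5114 such rat barcodes, of which 4348 came from CSF. In the 279 pial barcodes without a cluster Cd14 was 510.5 CPM (53 UMIs).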

How the results depend on the processing

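With TMM scaling 7 rat ratios were higher by the rule, against 12 of 112 without it. With a 1.5-fold rule 8 mouse ratios were lower, against 5 of 62 by the main rule. Per mouse comparison, 2.95% to 18.6% of all genes were lower by the main rule. Under the other alternatives with a summed count, the counts of higher and lower ratios stayed within 1.5 times. No such count was made with cells weighted equally or with naive cells at the EAE minimum. TMM moved the scale of single comparisons by -0.71 (ILC) to 0.72 (granulo1) on the log2 scale. None of the ratios past 2-fold changed direction under the alternatives that gave a value. Under TMM, 37 of 41 rat and 20 of 23 mouse ratios stayed inside their counting interval, with cells weighted equally 37 of 41 and 18 of 23, and without the 5% of cells with most UMIs 37 of 41 and 21 of 23. That last setting took Cd14 in CSF against blood myeloid3 from -1.08 to -0.50, and Cd14 in dura against blood from 2.92 to 3.74. Bringing in clusters of 20 cells gave 24 higher and 6 lower of 88 mouse ratios. Per comparison, 2.455% to 25.1% of all genes were higher there and 2.92% to 18.6% lower. With a pseudocount of 1, the list of genes most like a member held 14 of the 21 rat and 12 of the 24 mouse names. No paired analysis was possible because each group was 1 library and no test was run. Depth limits Tlr9 in both species, Tlr12 outside dendritic cells and Tlr4 outside the CNS in the rat, and naive mouse groups of 58 to 106 cells, where counts of 1 to 4 UMIs set several ratios.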
